A study of Mus musculus with 40 samples.

Results

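Brown adipose tissue, the fat depot that burns fuel for heat, was compared between 5 mice given blocking antibodies against the Notch ligands Jag1 and Jag2 and 5 mice given a control antibody, 15 h after a single intraperitoneal injection. These 10 mice are the earliest of the 40 in the series and were taken by the titles of their libraries. The 5 Jag antibody mice (numbers 6 to 10) received anti-Jag1 and anti-Jag2 at 20 mg/kg each. The 5 control mice (numbers 1 to 5) received an anti-ragweed isotype antibody, which has no target in the mouse, at 40 mg/kg. All were male C57BL/6 mice with no engineered allele named in the labels, aged 10 to 14 weeks by the treatment protocol and 10 to 12 weeks by the series design, and none of these 10 received thyroid hormone. The other 30 mice, 5 in each group, had the same antibodies and were collected 5 d or 7 d after the injection, 1 pair of the 7 d groups having thyroid hormone daily from day 2. The series title places the study in Notch signalling in the thyroid. The libraries come from whole tissue, so fewer cells of a type and less RNA per cell cannot be told apart in any result below.

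Notch receptors sit on one cell and are activated by ligands of the Jagged and Delta-like families on a neighbour. Ligand binding frees the receptor's intracellular part, which enters the nucleus and joins the DNA-binding protein RBPJ to switch on targets of the Hes and Hey families. In blood vessels, Jag1 and the receptor Notch3 are known for their role in the mural cells, the pericytes and smooth muscle cells that wrap the endothelium. Brown adipocytes are marked by Ucp1, which uncouples respiration from ATP synthesis.

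Total counts at 15 h ran from 14111124 to 18753416 per library. Ucp1 had 554 to 3671 CPM (a gene's count relative to its scaled library total, not to its length) in control mice and 4252 to 6906 CPM in Jag antibody mice, so this defining marker of brown fat was abundant in all 10 libraries. Control mice 2 and 3 stood apart from the other 8 mice. The first principal component held 48.04% of the variance and placed them at 126 and 84.7, with the other 8 mice between -51.0 and 28.5. Their log2 CPM values were correlated at 0.977 with each other and at 0.875 to 0.934 with the other 3 control mice. The 18 macrophage genes summed to 5546 CPM in control mouse 2 and 4045 CPM in control mouse 3, against 586 to 1156 CPM in the other control mice and 573 to 914 CPM in the Jag antibody mice. The 7 neutrophil genes summed to 2749 CPM and 248.5 CPM in these 2 mice, against 12.8 to 29.9 CPM in the other controls and 18.1 to 175 CPM in the Jag antibody mice. Called genes and lists are therefore described with all 10 mice and, for most, again without control mice 2 and 3. Skeletal muscle transcripts split both groups: the 8 fibre genes summed to 1356 and 11750 CPM in control mice 4 and 5 and to 754 to 2301 CPM in Jag antibody mice 6, 7 and 10, but to 2.29 to 5.33 CPM in the other 5 mice.

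**Figure D1:**
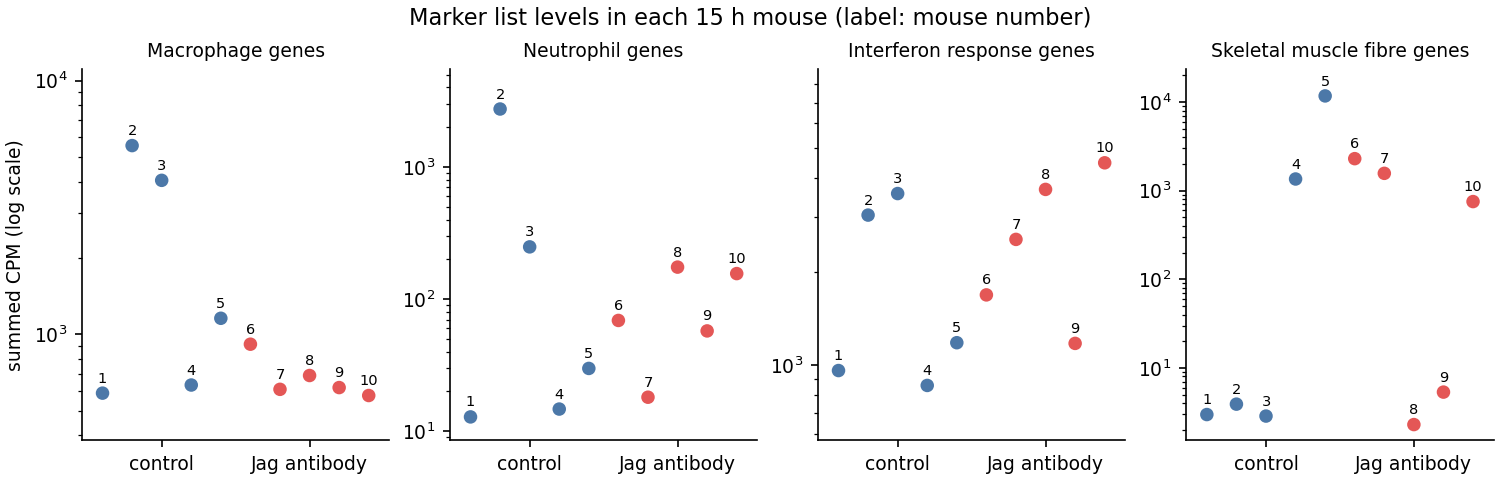
Summed CPM (log axis) of the macrophage, neutrophil, interferon response and skeletal muscle fibre lists in each mouse collected at 15 h, with control mice in blue, Jag antibody mice in red and the mouse number above each point. Control mice 2 and 3 are the 2 highest of 10 for macrophage genes, at 5546 and 4045 CPM, and all 5 Jag antibody mice lie between 573 and 914 CPM.

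With all 10 mice, 194 of 17079 tested genes (1.14%) differed at an adjusted p under 0.05 by edgeR's quasi-likelihood test, and these are said to be called. The higher genes numbered 40 (0.234%) and the lower genes 154 (0.902%). The lower calls went with the 2 controls that stood apart: in 142 of the 154, control mice 2 and 3 held the 2 highest values of 10. The median log2 fold change of the lower genes was -2.20 with all mice and -0.24 without those 2, and 119 of 154 kept their sign. The higher genes moved less, from a median of 1.20 to 0.93, and all 40 kept their sign and an unadjusted p under 0.05. The 40 were picked with the same Jag antibody mice and the same other controls, so this is no separate support for them. Without control mice 2 and 3, the number called was 3 (0.0176%), 1 higher and 2 lower. An unadjusted p under 0.05 was then reached by 782 (4.58%). A fit of the 10 mice alone called 0 of 15079 genes and left 1917 (12.7%) at an unadjusted p under 0.05, where 2052 (12.0%) had one in the fit of 40. Leaving out control mouse 2 or 3 gave 6 or 9 calls, leaving out control mouse 1, 4 or 5 gave 753, 588 or 390, and leaving out 1 of the 5 Jag antibody mice gave 6 to 26.

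**Figure D2:**
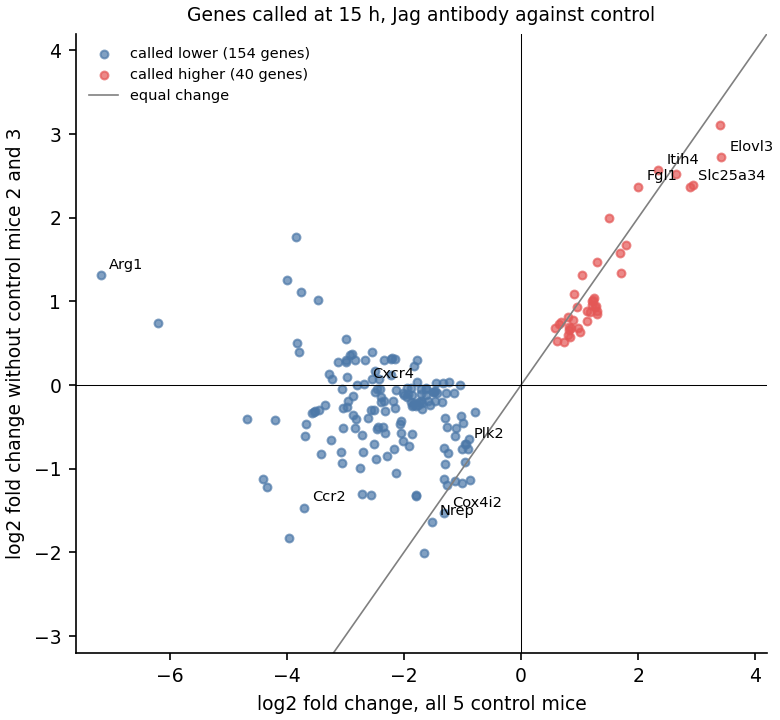
Log2 fold change, Jag antibody against control, of the 194 genes called at 15 h, with all 5 control mice (horizontal) and without control mice 2 and 3 (vertical). The 40 higher genes (red) stay near the grey line of equal change, while the 154 lower genes (blue) have a median of -2.20 on the horizontal and -0.24 on the vertical axis.

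Trim16 was among the 3 genes called without control mice 2 and 3 and was singled out after its values were seen. Trim16, a tripartite motif protein linked to the handling of damaged membranes and proteins, stood at 60.4, 28.9, 47.8, 78.7 and 59.4 CPM in control mice and 33.6, 45.5, 23.4, 25.8 and 22.6 CPM in Jag antibody mice. Control mouse 2 was the only control below the highest Jag antibody mouse. Trim16 fell by 0.87 (SE 0.20, edgeR adjusted p = 0.0327), and the difference was -1.13 without the 2 controls.

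The groups of 5 did not overlap in 15 of the 154 genes called lower and in 27 of the 40 called higher. Over all tested genes 2.48% did not overlap, 0.919% lower and 1.56% higher. Of the separated lower genes, 10 with a mean log2 CPM of at least 1 are described here. Nrep, which encodes a small cytosolic protein first described in regenerating nerve, had the largest fall of these 10. It stood at 64.1, 52.2, 64.8, 61.3 and 88.2 CPM in control mice and at 22.2, 29.0, 27.1, 12.2 and 24.4 CPM in Jag antibody mice. The lowest control was thus well above the highest Jag antibody mouse, and control mice 2 and 3 lay among the other controls. Nrep fell by 1.52 on the log2 scale (SE 0.29, edgeR adjusted p = 0.0183), and by 1.63 without control mice 2 and 3. Plk2, a polo-like kinase induced by growth and stress signals, had the smallest adjusted p of all 17079 genes. Its 5 controls were at 23.4, 37.3, 37.6, 29.7 and 24.3 CPM and its 5 Jag antibody mice at 15.6, 15.7, 18.6, 15.0 and 14.1 CPM. The Jag antibody values were tightly grouped, and control mice 2 and 3 were the highest. Plk2 fell by 0.95 (SE 0.15, edgeR adjusted p = 0.00353), and by 0.71 without the 2 controls.

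Membrane proteins were 4 of the other 8. Tspan4, a tetraspanin of the plasma membrane, stood at 41.9 to 85.8 CPM in control mice and 21.4 to 28.1 CPM in Jag antibody mice, and fell by 1.29 (SE 0.26, edgeR adjusted p = 0.0193), or by 0.95 without the 2 controls. Slc40a1 encodes ferroportin, the channel that lets iron out of cells, and fell from 70.1, 86.0, 67.2, 106 and 58.4 CPM to 34.3, 57.9, 26.3, 33.3 and 25.1 CPM. Jag antibody mouse 7 came within 1 CPM of the lowest control. The Slc40a1 difference was -1.13 (SE 0.28, edgeR adjusted p = 0.0401) and -1.14 without control mice 2 and 3. Slc6a8, the creatine transporter, had 33.3 to 57.0 CPM in control mice and 20.8 to 32.8 CPM in Jag antibody mice, with a difference of -0.95 (edgeR adjusted p = 0.0341) that was -0.92 without the 2 controls. The death receptor gene Tnfrsf21 had 7.79 to 23.9 CPM in control mice and 5.79 to 7.11 CPM in Jag antibody mice. Its difference of -1.24 (SE 0.22, edgeR adjusted p = 0.0129) was -0.82 without the 2 controls. Rnd3, an atypical small GTPase that loosens the actin cytoskeleton, differed by -0.90 (edgeR adjusted p = 0.0321) and by -0.77 without them. Arhgap10, which switches off small GTPases, differed by -0.95 (edgeR adjusted p = 0.0445) and by -0.70 without them. Pid1, an adaptor named for its effect on insulin signalling, differed by -0.99 (edgeR adjusted p = 0.0352) but by -0.45 without them.

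**Figure D3:**
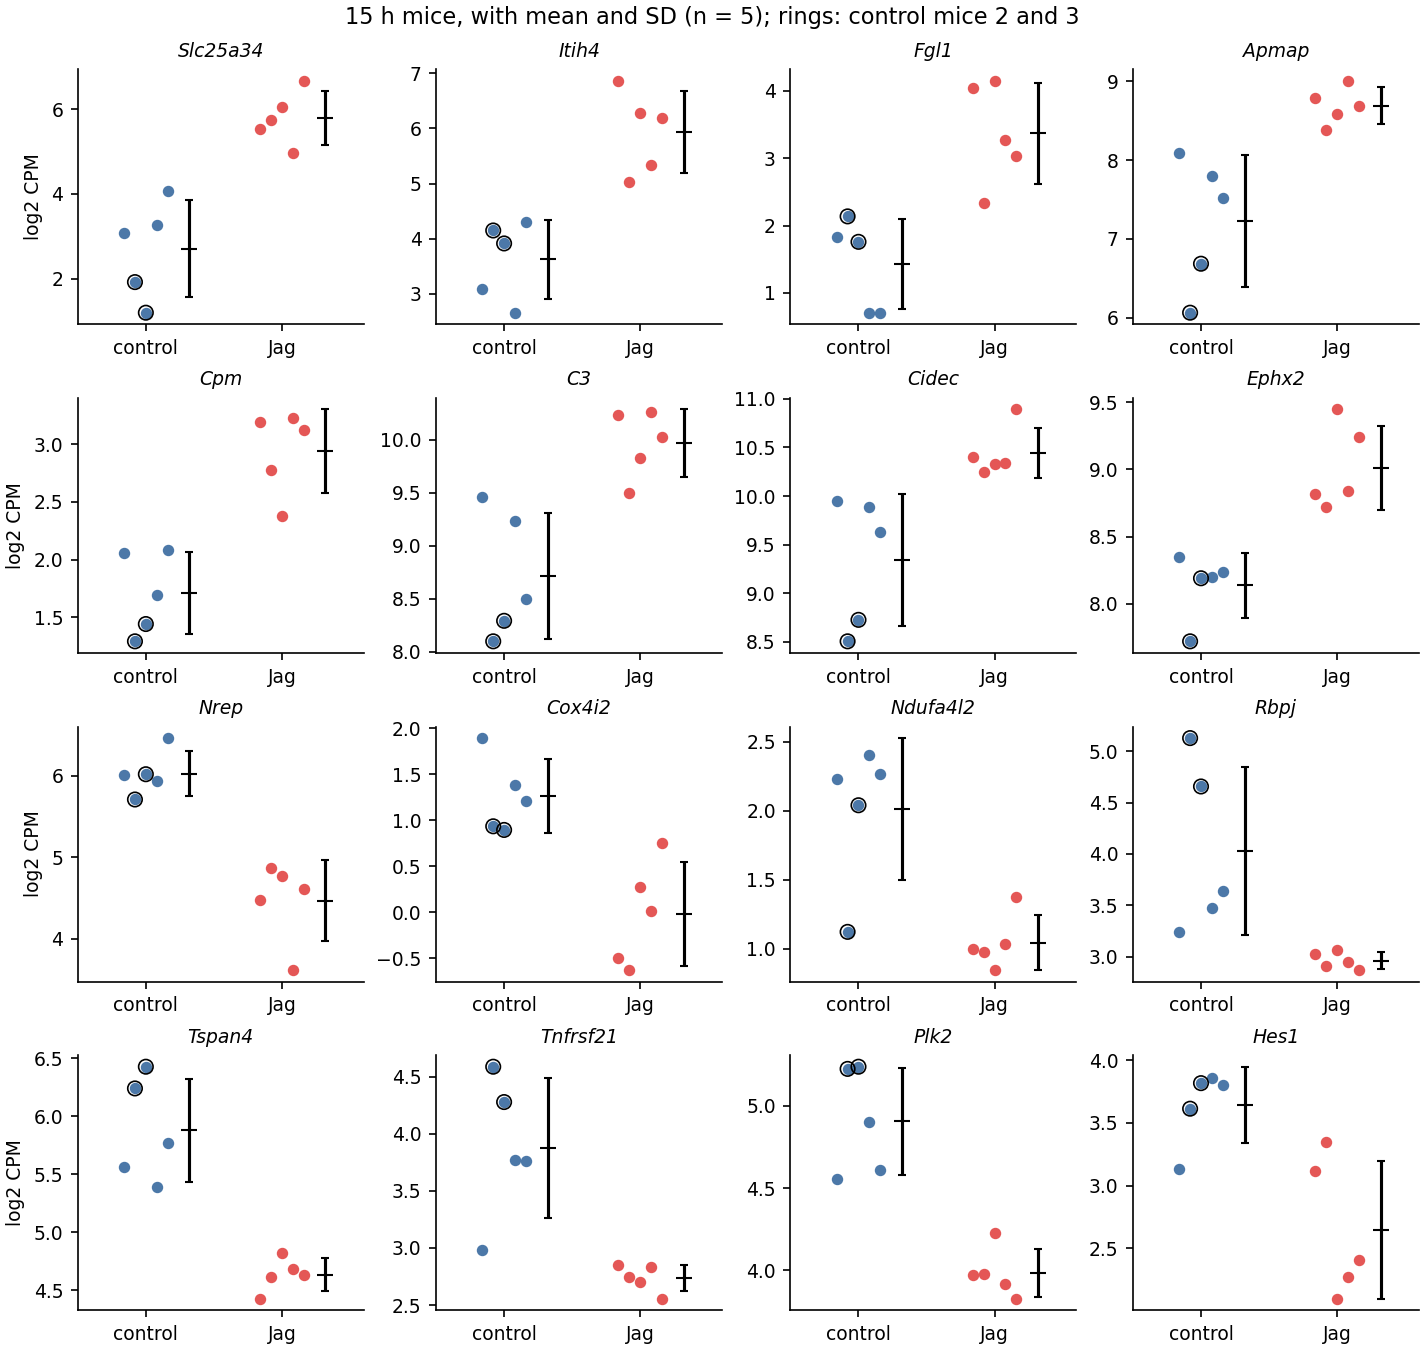
Log2 CPM of 16 genes in the 5 control mice (blue) and 5 Jag antibody mice (red) at 15 h, with the mean and SD of each group and rings around control mice 2 and 3. Nrep is separated with the ringed mice among the other controls, while for Rbpj, Tspan4 and Tnfrsf21 the ringed mice are the highest of the controls.

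Among the Notch genes, the antibody targets themselves did not pass the test. Jag1 stood at 29.9 to 43.4 CPM in control mice and 26.8 to 35.0 CPM in Jag antibody mice, with a log2 difference of -0.15 (edgeR adjusted p = 0.928). Jag2 differed by -0.02 (edgeR adjusted p = 0.998), and the sign of both changed with the processing; without control mice 2 and 3 they were 0.02 and -0.28. An antibody binds the protein, so transcript levels do not check the blockade. Of 8 tested receptors and ligands, none was called; an unadjusted p under 0.05 was reached by 3, all lower, against 8.31% of all tested genes; without control mice 2 and 3 there were 2, against 1.77%. Dll4, the main Delta-like ligand of endothelium, was the only one with no overlap. It stood at 12.4, 13.1, 14.7, 17.4 and 16.6 CPM in control mice and 6.25, 11.1, 9.37, 9.62 and 11.7 CPM in Jag antibody mice. Its difference was -0.63 (edgeR adjusted p = 0.36), and -0.69 without the 2 controls. Notch3, the receptor of mural cells, stood at 19.2, 8.20, 12.7, 18.8 and 21.1 CPM in control mice and 11.5, 9.58, 6.68, 11.1 and 9.24 CPM in Jag antibody mice. Control mouse 2 was the only control that overlapped the Jag antibody mice. The Notch3 difference was -0.73 (edgeR adjusted p = 0.39), and -1.04 without the 2 controls. Notch2 went the other way: control mice 2 and 3 were at 126 and 65.7 CPM and the other 8 mice at 23.6 to 36.0 CPM, so its difference of -0.95 (edgeR adjusted p = 0.073) was -0.18 without them.

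Of the 8 tested Notch targets 0 were called. With all mice an unadjusted p under 0.05 was reached by 2 lower genes and 1 higher, against 8.31% and 3.70% of all tested genes. Without control mice 2 and 3 it was reached by 1 and 1, against 1.77% and 2.80%. Hes1, the best known transcriptional target of Notch, was one of the lower ones. Control mice stood at 8.65, 12.1, 14.0, 14.4 and 13.9 CPM and Jag antibody mice at 8.58, 10.1, 4.19, 4.75 and 5.2 CPM. Jag antibody mice 8, 9 and 10 were below every control, and control mouse 1 lay level with mouse 6. The Hes1 difference was -0.94 (SE 0.27, edgeR adjusted p = 0.0685), and -0.91 without control mice 2 and 3. Hey1 differed by -0.20, Heyl by -0.36 and Nrarp by -0.58, with edgeR adjusted p of 0.907, 0.878 and 0.843. Without control mice 2 and 3 they were -0.18, -0.63 and -0.61, and Nrarp ran from -1.36 to -0.35 when 1 mouse was left out. The higher one was Dtx1, which modifies Notch signalling and is also made by lymphocytes, with a fitted difference of 2.71 (edgeR adjusted p = 0.207). It stood at 1.59 CPM in Jag antibody mouse 6, which also had the highest lymphocyte level, and at no more than 0.33 CPM in any other mouse, and the difference was 1.43 without that mouse. Lfng, a sugar transferase that tunes which ligands a receptor answers to, differed by -1.32 (edgeR adjusted p = 0.0641) but by -0.16 without the 2 controls, which held 49.0 and 31.2 CPM against 6.22 to 12.0 CPM in the other 8 mice. Among 22 genes of Notch processing and nuclear machinery, Rbpj alone was called, in the lower direction, against 0.902% of all tested genes. It stood at 9.36, 34.9, 25.1, 11.1 and 12.4 CPM in control mice and 7.22 to 8.25 CPM in Jag antibody mice. The groups did not overlap, but control mice 2 and 3 were far above the other controls. Rbpj fell by 1.27 (SE 0.28, edgeR adjusted p = 0.0321), and its difference was -0.50 without the 2 controls.

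RBPJ binds a sequence with the core TGGGAA. The 250 bases before the start of 4 lower genes are printed to show where those letters stand: Plk2 and Rbpj, which were called, Gucy1b1, a pericyte gene described below, and Lfng, a Notch target. They were chosen because they hold the core, with values of the genes known. Each is given 5′ to 3′ on the gene's strand from RefSeq on GRCm38.p6, in lower case, with the core or its reverse complement TTCCCA in capitals.
Plk2, chr13:110394794-110395043, plus strand: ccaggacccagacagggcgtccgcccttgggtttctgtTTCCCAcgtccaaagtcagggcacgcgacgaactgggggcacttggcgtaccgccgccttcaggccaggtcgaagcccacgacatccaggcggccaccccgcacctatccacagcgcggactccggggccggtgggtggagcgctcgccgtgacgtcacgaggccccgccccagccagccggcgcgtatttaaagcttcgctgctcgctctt
Rbpj, chr5:53590096-53590345, plus strand: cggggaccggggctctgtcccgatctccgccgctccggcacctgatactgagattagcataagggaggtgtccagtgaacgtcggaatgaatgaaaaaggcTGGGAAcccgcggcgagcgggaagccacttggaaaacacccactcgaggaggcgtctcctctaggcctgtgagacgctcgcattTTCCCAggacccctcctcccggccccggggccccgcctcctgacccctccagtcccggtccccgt
Gucy1b1, chr3:82074712-82074961, minus strand: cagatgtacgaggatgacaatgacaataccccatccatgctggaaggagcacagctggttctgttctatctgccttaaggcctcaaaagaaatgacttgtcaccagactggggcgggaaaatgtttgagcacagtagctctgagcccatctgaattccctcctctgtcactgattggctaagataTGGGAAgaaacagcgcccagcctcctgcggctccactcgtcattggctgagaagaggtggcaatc
Lfng, chr5:140607091-140607340, plus strand: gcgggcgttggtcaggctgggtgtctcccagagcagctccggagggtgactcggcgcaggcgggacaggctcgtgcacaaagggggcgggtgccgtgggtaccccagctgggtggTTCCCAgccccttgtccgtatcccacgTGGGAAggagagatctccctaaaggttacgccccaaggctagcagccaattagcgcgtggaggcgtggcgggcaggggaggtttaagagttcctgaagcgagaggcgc

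The core is a common run of letters. On either strand it stood in 21.6% of the 32851 promoter windows of this length in the table. It stood in 20.7% of the 145 windows of called lower genes (118 of 154 genes had a window) and in 16.1% of the 31 windows of called higher genes (25 of 40), so neither set of calls held it more often than promoters at large. Of the 9 windows of called lower genes without overlap between the groups (7 of 15 genes), 55.6% held it, and of the 12 windows of pericyte genes (11 of 16 genes), 41.7% did. The 9 windows include 2 of Rbpj that overlap and share a match, so that match is counted in both. Only the first of these is printed above. The longer site GTGGGAA, which contains the core, stood in 5.42% of all windows and in 4 of the 6 windows of Notch targets. The Plk2 match is of the longer form, and so is the second of the 2 Lfng matches. Windows are few in each set, and a match gives letters only, not binding.

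The mean log2 CPM of the 16 pericyte genes was 3.97 ± 0.34 (SD, n = 5) in control mice and 3.70 ± 0.14 (SD, n = 5) in Jag antibody mice (exact two-sided permutation p = 0.143, adjusted 0.459 over 15 library measures). Of the 16, 1 was called, in the lower direction, against 0.902% of all tested genes. A negative difference was held by 13, against 55.0%. An unadjusted p under 0.05 in the lower direction was reached by 6 of 16 with all mice and by 8 of 16 without control mice 2 and 3, against 8.31% and 1.77% of all tested genes. The list's median log2 fold change was -0.29 with all mice and -0.45 without the 2 controls. The medians over all tested genes were -0.036 and -0.0024. Control mice 2 and 3 had the 2 lowest control means of this list, at 3.39 and 3.96 log2 CPM, and were left out after the data were seen. The larger fall without them is therefore no separate support for a lower level. The list's summed level overlapped, at 1025 to 1341 CPM in control mice and 738 to 1198 CPM in Jag antibody mice. The called gene was Cox4i2, a pericyte-enriched form of a cytochrome c oxidase subunit linked to oxygen sensing. It stood at 3.62, 1.82, 1.76, 2.51 and 2.22 CPM in control mice and 0.613, 0.551, 1.11, 0.910 and 1.59 CPM in Jag antibody mice. The groups did not overlap, with control mice 2 and 3 the lowest of the controls. Cox4i2 fell by 1.31 (SE 0.33, edgeR adjusted p = 0.044), and by 1.53 without the 2 controls. At these low levels the call held under 5 of 21 alternatives, with the same direction under all of them.

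Other pericyte genes had negative differences without passing the test. Ndufa4l2, a mitochondrial protein induced by low oxygen and abundant in pericytes, had 4.60, 2.08, 4.02, 5.18 and 4.72 CPM in control mice and 1.90, 1.87, 1.70, 1.95 and 2.49 CPM in Jag antibody mice. Control mouse 2 was the only control inside the Jag antibody range. Its difference was -1.05 (edgeR adjusted p = 0.0616), and -1.28 without the 2 controls. Rgs5, a regulator of G protein signalling used as a pericyte marker and named here after its values were seen, stood at 486, 158, 281, 630.4 and 464 CPM in control mice and 189.8, 346, 227, 214 and 231 CPM in Jag antibody mice. Control mice 2 and 3 were the only controls below the highest Jag antibody mouse. Its difference was -0.74 (edgeR adjusted p = 0.234), and -1.12 without the 2 controls. Gucy1b1, a subunit of the guanylate cyclase that senses nitric oxide, differed by -0.73 (edgeR adjusted p = 0.167), and by -1.05 without them. In the endothelial list, of 28 tested genes 1 was called lower, against 0.902% of all tested genes. It was the chemokine receptor gene Cxcr4, whose difference was 0.016 without control mice 2 and 3. An unadjusted p under 0.05 lower was reached by 3 of 28, near the 8.31% of all tested genes, and the median was -0.056. Gja4, the gap junction protein of arterial endothelium, was one of those 3, with 3.10 to 4.22 CPM in control mice and 1.31 to 2.71 CPM in Jag antibody mice (log2 difference -0.88, edgeR adjusted p = 0.101, and -0.95 without the 2 controls). Of 14 vascular smooth muscle genes, none was called and 0 reached an unadjusted p under 0.05 with all mice.

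Among the separated higher calls, Slc25a34, an orphan mitochondrial carrier, stood at 8.38, 3.68, 2.19, 9.57 and 16.6 CPM in control mice and 46.2, 53.8, 65.6, 31.1 and 101 CPM in Jag antibody mice. Each Jag antibody mouse was above every control, and control mice 2 and 3 were the lowest. Slc25a34 rose by 2.88 on the log2 scale (SE 0.58, edgeR adjusted p = 0.0208), and by 2.37 without the 2 controls. It was the only called gene among 41 mitochondrial carriers tested, where 0.234% of all tested genes were called higher and 0.902% lower. Apmap, a membrane protein of adipocytes, stood at 66.9 to 271 CPM in control mice and 333 to 514 CPM in Jag antibody mice, and rose by 1.30 (SE 0.25, edgeR adjusted p = 0.0183). Its difference was 0.89 without the 2 controls. Cidec, a lipid droplet protein that promotes large droplets, stood at 989, 363, 423, 948 and 790.3 CPM in control mice and 1355, 1218, 1287, 1296 and 1899 CPM in Jag antibody mice. Cidec rose by 1.01 (SE 0.24, edgeR adjusted p = 0.0399), and its difference was 0.63 without the 2 controls, the lowest in the control group. Of 14 genes of lipolysis and the lipid droplet, Cidec alone was called, in the higher direction, against 0.234% of all tested genes. An unadjusted p under 0.05 higher was reached by 7, against 3.70%, and by 3 without control mice 2 and 3, against 2.80%.

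Hepatic-type acute phase genes, which encode plasma proteins made mainly in liver, held 3 of the higher calls among 22 tested, against 0.234% of all tested genes. Itih4, a plasma inhibitor chain released in inflammation, stood at 8.44, 17.6, 15.0, 6.21 and 19.7 CPM in control mice and 116, 32.6, 77.9, 40.5 and 72.6 CPM in Jag antibody mice. Fgl1, a secreted fibrinogen-like protein, stood at 3.46, 4.30, 3.29, 1.54 and 1.53 CPM in control mice and 16.4, 4.96, 17.6, 9.56 and 8.12 CPM in Jag antibody mice. Both genes were separated between the groups, with Jag antibody mouse 7 the nearest to the controls in each. Itih4 rose by 2.34 (SE 0.51, edgeR adjusted p = 0.029), and Fgl1 rose by 2.00 (SE 0.38, edgeR adjusted p = 0.0183). Without control mice 2 and 3 the differences were 2.57 and 2.37. C3, the central complement component, had 274 to 703 CPM in control mice and 721 to 1226 CPM in Jag antibody mice, and rose by 1.18 (SE 0.27, edgeR adjusted p = 0.0327), with a difference of 0.88 without the 2 controls. The rest of the list was uneven: Lcn2, an iron-binding protein of inflamed tissue, had 4.92, 160.5, 138, 2.39 and 11.3 CPM in control mice and 21.2, 18.7, 188, 11.4 and 154 CPM in Jag antibody mice. Its high values were in control mice 2 and 3 and in Jag antibody mice 8 and 10, and its difference was 0.31 (edgeR adjusted p = 0.968) with all mice and 3.66 without the 2 controls. The list's count with an unadjusted p under 0.05 in the higher direction was 5 of 22 with all mice, against 3.70% of all tested genes, and 10 of 22 without the 2 controls, against 2.80%. The 2 controls left out also held the 2 highest control sums of this list, at 7204 and 7871 CPM against 2840 to 4218 CPM in the others.

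Of the 27 separated higher genes, the 12 with the largest differences and a mean log2 CPM of at least 1 are described here. Hmgcs1, an early enzyme of cholesterol synthesis, had 141 to 241 CPM in control mice and 314 to 605 CPM in Jag antibody mice and rose by 1.23 (edgeR adjusted p = 0.0429), with a difference of 1.02 without the 2 controls. Of 19 cholesterol synthesis genes, 17 had a negative difference with all mice, against 55.0% of all tested genes. An unadjusted p under 0.05 in the lower direction was reached by 8, against 8.31%. Without control mice 2 and 3, 16 of 19 had a negative difference, against 50.4%, and 1 of 19 reached that p lower, against 1.77%. Cpm, a carboxypeptidase that trims peptides at the cell surface, rose by 1.25 (SE 0.26, edgeR adjusted p = 0.0214). Adam12, a membrane metalloprotease, rose by 1.22 (edgeR adjusted p = 0.0429), and the aldehyde dehydrogenase gene Aldh3b2 rose by 1.12 (edgeR adjusted p = 0.0429). Their differences without the 2 controls were 1.04, 1.01 and 0.89. ENSMUSG00000101828, for which the table of identifiers gave no symbol, rose by 1.28, and the predicted gene Gm45716 rose by 1.21 (edgeR adjusted p = 0.0429 and 0.0488). Without the 2 controls these were 0.95 and 0.96.

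Of 24 brown fat and thermogenic genes, 1 was called higher, against 0.234% of all tested genes. An unadjusted p under 0.05 was reached by 5, all higher, against 3.70%, and by 3 without control mice 2 and 3, against 2.80%. In 4 the groups did not overlap in that direction, against 1.56%. Ucp1 was separated between the groups, with a difference of 1.12 (SE 0.41, edgeR adjusted p = 0.176) that was 0.64 without the 2 controls, whose 554 and 1323 CPM were the lowest of 10. Ucp3, the uncoupling protein relative used in fatty acid handling, stood at 141, 44.8, 106, 109.7 and 111 CPM in control mice and 239, 188, 169, 213 and 212 CPM in Jag antibody mice. Its difference was 1.00 (edgeR adjusted p = 0.0583), and 0.76 without the 2 controls. Glycerol kinase, Gk, which lets brown fat reuse glycerol, had 100.3 to 135 CPM in control mice and 175 to 364 CPM in Jag antibody mice (log2 difference 1.23, edgeR adjusted p = 0.0828, and 1.13 without the 2 controls). The called gene was Elovl3, a fatty acid elongase induced by cold, at 16.2, 0.399, 0.365, 3.19 and 1.42 CPM in control mice and 35.7, 6.00, 15.0, 164 and 9.34 CPM in Jag antibody mice. Elovl3 rose by 3.41 (SE 0.88, edgeR adjusted p = 0.0482) with overlapping groups, since control mouse 1 lay above Jag antibody mice 7, 8 and 10. The difference was 2.72 without control mice 2 and 3 and ran from 1.94 (without Jag antibody mouse 9) to 5.10 (without control mouse 1), and the call held under 5 of 21 alternatives. The list as a whole went from a median of 0.12 to -0.11 when control mice 2 and 3 were left out, so no direction for brown fat genes held across both comparisons.

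The median of the nuclear-encoded respiratory chain subunits also changed sign. Their median was 0.12 with all mice and -0.18 without control mice 2 and 3, with 21 and 81 of 90 genes negative. Cox4i2 was the only call of the 90, in the lower direction, against 0.902% of all tested genes. The 13 transcripts of the mitochondrial genome had 0 calls and a median of 0.16, which was -0.046 without the 2 controls. Mitochondrial transcripts made up 23.5% ± 2.79 (SD, n = 5) of counts in control mice and 25.5% ± 2.45 (SD, n = 5) in Jag antibody mice (exact two-sided permutation p = 0.27, adjusted 0.506 over 15 library measures). Fatty acid and triglyceride synthesis genes had 0 calls among 21, and their summed level ran from 5113 to 45430 CPM in control mice, a spread wider than that of the Jag antibody mice.

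Myeloid genes stood highest in control mice 2 and 3. Ccr2, the chemokine receptor that brings monocytes into tissue, stood at 18.4, 619.7, 351, 25.9 and 96.3 CPM in control mice and at 15.6, 16.7, 25.5, 15.7 and 11.5 CPM in Jag antibody mice. Its difference was -3.71 (SE 0.61, edgeR adjusted p = 0.00615), and -1.47 without the 2 controls. Lyz2, the lysozyme of myeloid cells, was at 2505 and 2128 CPM in these 2 mice and at 153 to 564 CPM in the other 8, and its difference went from -2.32 (edgeR adjusted p = 0.0383) to -0.57. Tgfbi and Metrnl, both secreted proteins that macrophages also make, and the chemokine receptor Cxcr4 behaved alike, with differences of -2.15, -1.95 and -2.68 (edgeR adjusted p of 0.0327, 0.0482 and 0.0352) that were -0.27, -0.14 and 0.016 without the 2 controls. Over the 18 macrophage genes, 2 were called lower, against 0.902% of all tested genes. An unadjusted p under 0.05 lower was reached by 11 with all mice, against 8.31%, and by 1 without the 2 controls, against 1.77%. Neutrophil genes changed sign altogether: their median was -2.79 with all mice and 3.10 without the 2 controls, with 7 of 7 negative in the first and 0 of 7 in the second. The 2 controls left out held the 2 highest control sums of this list and were picked with these values seen. The positive sign without them is therefore no separate support for a higher level. S100a8, a calcium-binding protein abundant in neutrophils, had 1.03, 686, 37.6, 2.45 and 3.92 CPM in control mice and 14.3, 3.42, 43.8, 12.7 and 31.5 CPM in Jag antibody mice. Jag antibody mice 6, 8, 9 and 10 were thus above control mice 1, 4 and 5 and below control mouse 2, and its difference was -2.79 (edgeR adjusted p = 0.373) with all mice and 3.10 without the 2 controls.

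Interferon response genes ran in the same 2 control mice and in some Jag antibody mice. The 25 genes summed to 961, 3040, 3566, 861 and 1181 CPM in control mice 1 to 5 and to 1683, 2539, 3677, 1175 and 4478 CPM in Jag antibody mice 6 to 10. Mice 7, 8 and 10 were thus high and mouse 9 was level with the low controls. With all mice 1 of 25 was called, in the higher direction, against 0.234% of all tested genes. An unadjusted p under 0.05 higher was reached by 6, against 3.70%. Without control mice 2 and 3 there were 20, against 2.80%, and the list's median went from 0.40 to 1.51. These 2 mice held the 2 highest control sums of this list and were left out after the data were seen. The larger count without them is therefore no separate support for a higher level. Isg15, a ubiquitin-like protein induced by interferon, had 11.6, 118, 139, 9.34 and 24.4 CPM in control mice and 22.9, 83.8, 131, 9.17 and 153 CPM in Jag antibody mice, with a difference of 0.40 (edgeR adjusted p = 0.939) that was 2.40 without the 2 controls. The neutrophil genes' sum was also highest among Jag antibody mice in mice 8 and 10, at 175 and 156 CPM; its part in the interferon values was not tested. The core of the interferon-stimulated response element, which interferon-activated factors bind, stood on either strand in 45.5% of 22 windows of these genes and in 2.98% of all promoter windows.

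**Figure D4:**
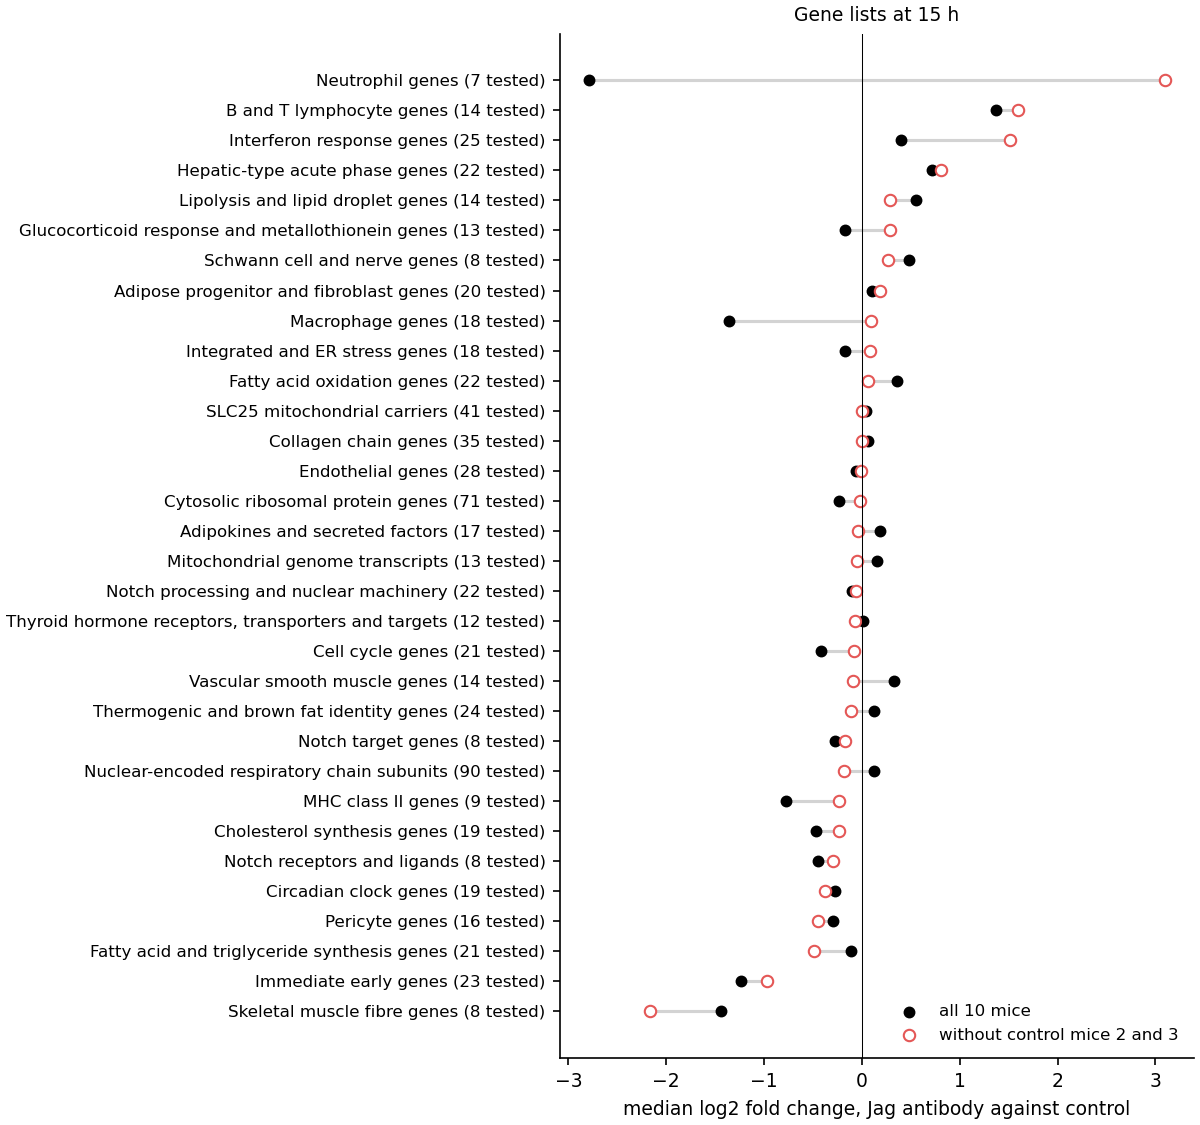
Median log2 fold change, Jag antibody against control at 15 h, of 32 gene lists with all 10 mice (black) and without control mice 2 and 3 (open red), with the number of tested genes after each name. Neutrophil genes move from -2.79 to 3.10 and macrophage genes from -1.36 to 0.09, while pericyte genes stay negative at -0.29 and -0.45 and acute phase genes positive at 0.72 and 0.81.

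Immediate early genes are those that cells switch on within minutes of a stimulus. Of 23 genes, 18 had a negative difference with all mice and 17 without control mice 2 and 3, where none was called. With all mice 1 was called lower, against 0.902% of all tested genes. An unadjusted p under 0.05 lower was reached by 13, against 8.31%, and by 8 without control mice 2 and 3, against 1.77%. The list's median was -1.23 and -0.97. Zfp36, which speeds the decay of inflammatory messages, stood at 51.1, 173, 139.9, 147 and 143 CPM in control mice and 44.2, 57.3, 50.9, 50.5 and 59.1 CPM in Jag antibody mice. Control mouse 1 was the only control within the Jag antibody range. Zfp36 fell by 1.32 (SE 0.35, edgeR adjusted p = 0.049), and its difference was -1.12 without the 2 controls. Jun, a subunit of the transcription factor AP-1, stood at 47.6, 77.7, 56.8, 175 and 126 CPM in control mice and 16, 46.9, 33, 36.9 and 59.1 CPM in Jag antibody mice. Its difference was -1.33 (edgeR adjusted p = 0.0628), and -1.60 without the 2 controls. The growth regulator Myc differed by -1.28 (edgeR adjusted p = 0.0583), and by -0.98 without them. The list's summed level overlapped, at 510 to 2319 CPM in control mice and 405 to 1093 CPM in Jag antibody mice, with the 2 highest sums in control mice 4 and 5, the 2 controls with muscle transcripts. The part of muscle in this was not tested gene by gene.

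Clock genes, which follow the hour of collection, were also uneven. Of 19 tested, 0 were called. An unadjusted p under 0.05 lower was reached by 5 with all mice, against 8.31% of all tested genes. Without control mice 2 and 3 it was reached by 7, against 1.77%. These 2 mice held the 2 lowest control sums of this list, at 562.5 and 639 CPM against 746 to 831 CPM in the others. They were left out after the data were seen, so the larger count is no separate support for a lower level. Nr1d1, a repressor whose level swings over the day, had 125, 38.4, 80.4, 145 and 115 CPM in control mice and 69.8, 62.7, 15.9, 96.9 and 19.3 CPM in Jag antibody mice (log2 difference -0.93, edgeR adjusted p = 0.265, and -1.28 without the 2 controls). Jag antibody mice 8 and 10 were the lowest of 10, and the labels give no hour of collection. Bhlhe40, a repressor of clock genes, had 51.9 to 102 CPM in control mice and 14.4 to 50.4 CPM in Jag antibody mice without overlap (log2 difference -1.29, edgeR adjusted p = 0.0776, and -0.96 without the 2 controls).

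The remaining lists held few calls. Adipose progenitor and fibroblast genes had 1 gene called lower of 20, Tgfbi, described above, against 0.902% of all tested genes. By edgeR 0 were called of 9 MHC class II genes, 21 cell cycle genes, 35 collagen chains and 18 integrated stress genes. In that order 4, 3, 1 and 1 were lower at an unadjusted p under 0.05, against 8.31% of all tested genes. Without control mice 2 and 3, 0, 1, 0 and 0 were lower at that p, against 1.77%. The higher ones were then 1, 0, 0 and 3, against 2.80%. Thyroid hormone receptors, transporters and targets had 0 called of 12 and 0 at an unadjusted p under 0.05. Glucocorticoid response genes had 0 called of 13, with 2 lower at that p, against 8.31%, and 1 higher, against 3.70%. Cytosolic ribosomal protein genes had 0 called of 71 and 0 at that p, and their reads can be split among many near-identical copies. B and T lymphocyte genes had 0 called of 14 and 5 at that p, all higher, against 3.70% of all tested genes. Their summed level was 342 CPM in Jag antibody mouse 6 against 12.5 to 67.3 CPM in the other 9 mice, and the B cell gene Ms4a1 stood at 19.4 CPM in that mouse against 0.341 to 1.73 CPM in the others, with a difference of 2.25 (edgeR adjusted p = 0.0746), or 2.56 without the 2 controls.

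Most differences seen at 15 h were not called again at later times, in which separate mice and separate controls were compared. At 5 d, 8.02% of tested genes were called, 5.93% lower and 2.09% higher. Of the 40 genes called higher at 15 h, 7 were called higher at 5 d, and of the 154 lower genes 7 were called lower. At 7 d, 2.50% of all genes were called, 1.21% higher and 1.29% lower, and 4 of 40 and 4 of 154 were called in the same direction. At this time 42 of the 154 lower genes kept a negative sign and their median was 0.50, where that of all tested genes was 0.047, so most genes called lower at 15 h had a positive difference at 7 d. The count with a negative sign was 118 of 154 at 5 d and 121 of 154 at 7 d with hormone. Of the 40 higher genes, 28, 26 and 26 had a positive difference in these later comparisons, in order of time with the hormone groups last. At 7 d with thyroid hormone the shares were 0.697% higher and 0.439% lower, and 5 of 40 and 3 of 154 were called in the same direction. Of the lower genes 2, and of the higher genes 2, were called in the same direction in all 4 comparisons: Nrep, Cox4i2, Cyp2b10 and Gramd1b, the last 2 named after their values were seen. The Nrep difference was -1.52 at 15 h, then -1.86 (5 d), -1.84 (7 d) and -1.78 (7 d, hormone). Cox4i2 differed by -1.31, -1.17, -2.40 and -1.49 in the same order.

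Cyp2b10, a cytochrome P450 best known in liver as a target of the nuclear receptor CAR, stood at 8.06, 2.88, 2.43, 16.1 and 11.1 CPM in control mice at 15 h and at 86.6, 16.9, 15.7, 155 and 35.8 CPM in Jag antibody mice. Its difference of 2.93 (SE 0.57, edgeR adjusted p = 0.0193) (2.40 without the 2 controls) was followed by 1.83, 2.57 and 3.63; it has close copies in the genome, so its reads are uncertain. Gramd1b, which moves cholesterol from the plasma membrane into the cell, stood at 19.1, 36.2, 22.3, 20.4 and 26.7 CPM in control mice and 77.8, 61.4, 34.1, 80.4 and 52.4 CPM in Jag antibody mice. Its difference of 1.30 (SE 0.31, edgeR adjusted p = 0.0383) (1.47 without the 2 controls) was followed by 1.39, 1.82 and 1.5. In both genes the groups at 15 h overlapped by 1 mouse on a side. Of the 16 pericyte genes, 1 was called lower at 15 h, 6 at 5 d, 7 at 7 d and 5 with hormone, and 0 were called higher at any time. Over all tested genes the shares called lower were 0.902%, 5.93%, 1.29% and 0.439% in that order. Ndufa4l2 was called at the 3 later comparisons at -1.43, -1.99 and -1.59, and Rgs5 at -1.41, -2.37 and -2.32. Gucy1b1 was called with hormone alone, at -1.05 (edgeR adjusted p = 0.0362), and not at 5 d or 7 d (edgeR adjusted p = 0.0805 and 0.0867). For Rgs5 the difference at 7 d was larger than that at 15 h (interaction -1.63, SE 0.42, edgeR adjusted p = 0.0417), and for Cox4i2 the interaction of -1.08 was not called (edgeR adjusted p = 0.226).

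For some other genes the antibody difference changed with time by the interaction test in the fit of all mice. The interaction of antibody with time called 17 genes between 5 d and 15 h (0.0995%, 0.0234% higher and 0.0761% lower at 5 d) and 223 between 7 d and 15 h (1.31%, 1.04% higher and 0.269% lower at 7 d). Plk2 went from -0.95 at 15 h to -0.07 at 5 d and 0.52 at 7 d, and its interaction at 7 d was 1.46 (SE 0.21, edgeR adjusted p = 0.000575). Slc40a1 went from -1.13 to 0.29 and 0.81 (interaction at 7 d 1.94, edgeR adjusted p = 0.017), and Slc6a8 from -0.95 to 0.00 and 0.59 (interaction 1.54, edgeR adjusted p = 0.017). Fgl1 went from 2.00 to -0.05 and 0.02, with interactions of -2.05 at 5 d and -1.98 at 7 d that were not called (edgeR adjusted p = 0.0844 and 0.0503). Without control mice 2 and 3, 9 genes had a called interaction at 5 d and 14 at 7 d. With only the mice compared the counts were 2 and 7.

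**Figure D5:**
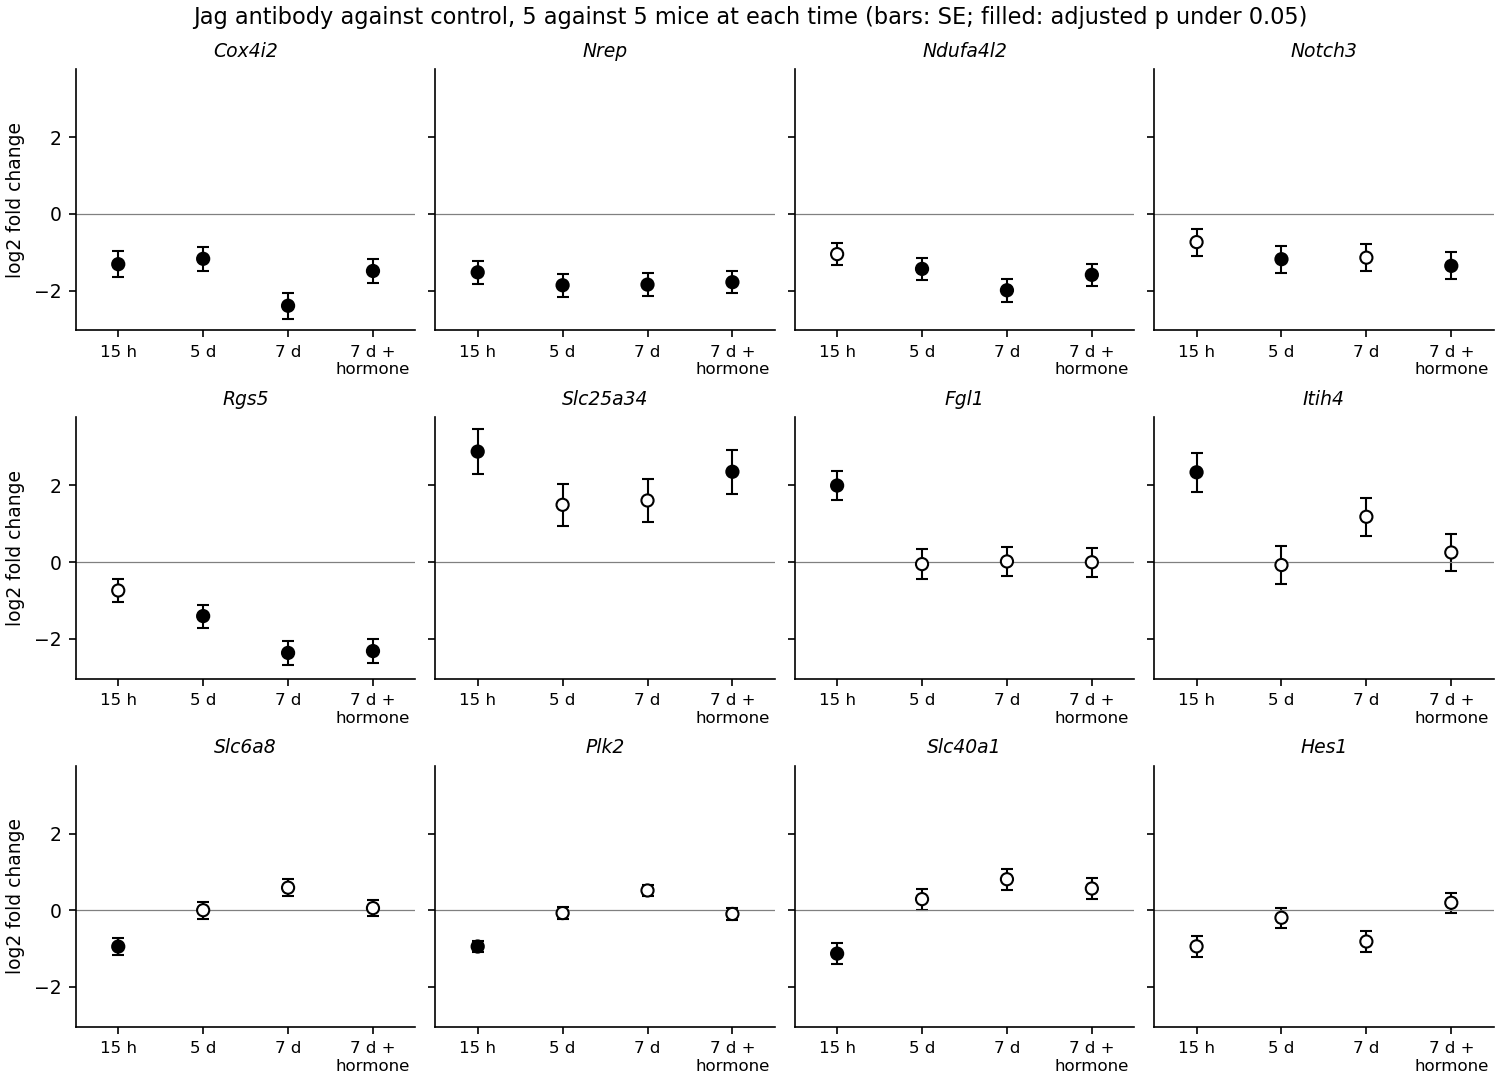
Log2 fold change with its SE, Jag antibody against control, of 12 genes in the 4 antibody comparisons, each from 5 against 5 separate mice, with filled points for an adjusted p under 0.05. Nrep stays between -1.52 and -1.86 and Cox4i2 between -1.17 and -2.40, Rgs5 goes from -0.74 to -2.37, and Fgl1 is at 2.00 at 15 h and near 0 later.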

How the data were processed

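Bulk RNA sequencing libraries of whole brown fat were read as single-end 50 bp reads, per the labels' protocols. The authors deposited whole-number counts per Ensembl gene (52636 genes, 40 mice) and a matching FPKM table. GSNAP and limma are named without versions or roles, per the submitters' processing notes. The genome build, the annotation and whether counting used strand are not given in the sources used here. Nothing says how mice were housed or collected, so p-values measure the spread between these mice. For edgeR that spread was estimated over all 40 mice, not over the 10 mice of 15 h alone.

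The test was edgeR's (version 4.0.16, R 4.3.3): filterByExpr over 8 groups (17079 genes kept), TMM scaling and 1 robust quasi-likelihood model over 40 mice, with Benjamini-Hochberg adjustment at 0.05. CPM are TMM-scaled and log2 CPM use a prior count of 2. Lengths and GC content for the offsets come from GENCODE M21 and promoters from RefSeq, both on GRCm38; symbols matched 52403 of 52636 identifiers. Library measures were compared by exact permutation (252 arrangements, smallest p 0.00794).

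The members and lists were chosen with earlier results of these data known. Named genes are up to 12 per direction with the largest change among called genes whose groups do not overlap and whose log2 CPM averages at least 1, called list members, the 3 smallest p of each of 32 lists and all tested Notch genes; some genes are not reported here. On simulated counts of the 15 h comparison (17079 genes), the method was tested with known changes. The counts were drawn independently around group means, with no shift shared by control mice 2 and 3. The simulation therefore cannot test calls that rest on such a shift.

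Alternatives were DESeq2 1.42.0, RLE factors, no low-count filter, only the mice compared, a muscle score, limma 3.58.1 on log2(FPKM + 1), voom with quality weights, length and GC offsets, leaving out each mouse, and mouse number as a replicate block. Leaving out control mice 2 and 3 and covariates from the macrophage or neutrophil list were added after seeing the data.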

Additional observations from a re-analysis of the deposited data

Results flagged for a closer look

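In groups of 5 mice, 76 groups of values were examined for an extreme mouse, with a gap to the next of over 0.71 of the group's range, which chance gives for about 1 in 20 groups, and 4 did. Control mouse 2 had 23395 genes detected against 22273 in the next control. Jag antibody mouse 6 had a mean lymphocyte level of 3.59 log2 CPM against 0.37 in the next mouse. Cidec stood at 10.89 log2 CPM in Jag antibody mouse 10 against 10.40 in the next, and Slc6a8 at 5.04 log2 CPM in Jag antibody mouse 7 against 4.54.

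The antibody difference itself differed between times by the edgeR interaction test in several named genes. Between 7 d and 15 h the interaction was 1.92 for Rbpj, 3.55 for Cxcr4, 2.98 for Tgfbi, 2.99 for Lyz2 and 3.84 for Ccr2. In these genes the 15 h difference was smaller in size without control mice 2 and 3 of 15 h, as given above. Leaving out those 2 mice took the called interactions between 7 d and 15 h from 223 to 14. It was -1.85 for ENSMUSG00000101828, 1.94 for Slc40a1, 1.54 for Slc6a8, 1.46 for Plk2 and -1.63 for Rgs5. For Gm45716 it was -2.37 between 5 d and 15 h and -2.19 between 7 d and 15 h.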

How the results depend on the processing

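The numbers of called genes are given for the 15 h comparison, the 5 d minus 15 h interaction and the 7 d minus 15 h interaction, in that order, with 194, 17 and 223 in the analysis as reported. They were 577, 498 and 638 with DESeq2, 26, 6 and 65 with no low-count filter, 0, 2 and 7 with only the mice compared, 26, 11 and 78 with limma on log2(FPKM + 1), and 107, 610 and 114 with voom quality weights. They were 3, 9 and 14 without control mice 2 and 3, 3, 110 and 21 with the macrophage covariate, and 89, 121 and 229 with the neutrophil covariate. With the muscle score the first was 118 and the second 0, and with length and GC offsets the second was 111. The split of 15 h calls was 65 higher and 42 lower with voom weights and 54 and 35 with the neutrophil covariate, against 40 and 154 as reported. The cause of these moves was not tested.

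Leaving out 1 mouse gave 6 (without control mouse 2) to 753 (without control mouse 1) calls at 15 h. The 5 d interaction ran from 2 (without control mouse 5 of 5 d) to 151 (without control mouse 1 of 5 d), and the 7 d interaction from 10 (without control mouse 2 of 7 d) to 696 (without control mouse 1 of 15 h). The difference in genes detected, -542 as reported (exact permutation p = 0.0476, adjusted 0.459), ran from -626 to -301. The antibody groups of one time share no mouse number, so the replicate block could be fitted for the interactions only, with 51 and 35 calls. Same-numbered mice were correlated at 0.0819 to 0.185 on average (lowest pair -0.337, highest 0.731); not every pair was over 0.1, and the mice are separate animals, so the numbers were not taken to pair them.

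Of 60 genes followed, 38 were called at 15 h. These 38 all kept their call with DESeq2, 37 with length and GC offsets, 32 with RLE factors, 12 with no filter, 0 with only the mice compared and 2 without control mice 2 and 3. Signs turned for Jag1 (0.0014 with voom weights, 0.025 without control mice 2 and 3) and for Cxcr4 (0.016 without control mice 2 and 3). Mmp8 turned to 0.96 with voom weights and 1.25 without control mice 2 and 3, and Arg1 to 1.32 without control mice 2 and 3 and 0.14 with the macrophage covariate. Jag2 turned to 0.00017 with no filter, 0.0014 with limma on FPKM, 0.13 with offsets, and ran from -0.13 to 0.27 when 1 mouse was left out. Hey2 turned to 0.013 with no filter, 0.015 with the muscle score, 0.070 with voom weights, 0.19 without control mice 2 and 3, 0.010 with the neutrophil covariate, and ran from -0.12 to 0.14 when 1 mouse was left out. Genes of a few CPM, such as Cox4i2, rest on few reads.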
